A study of Mus musculus with 12 samples.

Results

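The genes described here are 36 markers of the hippocampal subfields, taken by symbol from the 24421 genes listed per library. They comprise 14 markers of the dentate gyrus (Prox1, Dsp, C1ql2, C1ql3, Tdo2, Lct, Rfx3, Glis3, Sema5a, Pdzd2, Stxbp6, Dock10, Calb1 and Il16) and 11 of CA1 and CA2 (Wfs1, Pou3f1, Fibcd1, Man1a, Mpped1, Dcn, Rgs14, Amigo2, Map3k15, Pcp4 and Spink8). The other 11 are markers of CA3 (Bok, Cpne4, Iyd, Nnat, Coch, Elavl2, Slc9a4, Trps1, Spock1, Fmo1 and Plagl1). RNA that sedimented with ribosomes was sequenced from the hippocampus of C57/Bl6 mice aged 6 weeks, in 6 libraries labelled control and 6 labelled fear case. The protocol is worded alike for every library: 8 min in an unfamiliar context, then 7 min in the home cage, with the hippocampus collected at 15 min. What the control mice experienced, whether a shock was given and whether each library came from its own mouse are not stated, so the p-values rest on a spread between libraries that may be technical. The labels name the hippocampus as a whole and no subfield, and no total RNA of the same homogenates was analysed here.

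The hippocampus is a chain of subfields with distinct principal neurons. Granule cells of the dentate gyrus send mossy fibres to CA3 pyramidal neurons, CA3 projects to CA1, and CA2 is a small field between them. Each field has a stable set of identity genes that in situ hybridization and single-cell work have used as its markers. Some of these genes are also expressed elsewhere: decorin (Dcn) in meningeal fibroblasts, calbindin (Calb1) and Prox1 in interneurons, and Wfs1 and Pcp4 in cortex and striatum.

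All 36 genes had reads in every library, with 30 to 9016 counts per gene and library, and all 36 passed the filter on low counts. Gene counts per library ranged from 18.6 M to 44.2 M with a median of 21.6 M, fear case 6 being the deepest. Fear case 6 also had 12.5% of its gene counts on the ribosomal RNA precursor Rn45s, against 4.55% to 7.98% in the other libraries. Of 7 genes of excitatory neurons in all subfields, among them the vesicular glutamate transporter Slc17a7 and the kinase Camk2a, the summed level was 5617 to 6243 CPM across controls and 5221 to 6077 CPM in fear case (CPM, counts scaled to 1 M per library after TMM). The sum of 7 thalamic genes, markers of neighbouring tissue, was 143 to 196 CPM across controls and 128 to 174 CPM in fear case. That of 8 genes of striatum and cortex, whose median log2 fold change was -0.11, was 176 to 244 and 177 to 213 CPM. The lists hold different genes, so their sums do not measure the share of each tissue. The 12 choroid plexus markers differed most between libraries, at 787 to 2230 CPM across controls and 30.1 to 1527 CPM in fear case. Their main transcript Ttr stood at 7.41 to 335 CPM in fear case 1 to 5 and at 1319 CPM in fear case 6, against 641 to 1978 CPM in controls. Of the 12 markers 4 were at 0 in some library: Folr1, Aqp1 and Otx2 in fear case 2, and Slc4a5 in fear case 4.

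Setting the fear case libraries against the controls shows whether the polyribosomal level of these genes differed between the groups as labelled. None of the 36 passed edgeR's quasi-likelihood test with Benjamini-Hochberg adjustment over all genes: 0 of 36 were called, against 15 of 14564 genes tested (0.103%, made up of 0.0481% higher and 0.0549% lower). With so few calls among all genes, a count of 0 in 36 does not set these genes apart. DESeq2 and limma-voom also called 0 of the 36. At an unadjusted p under 0.05 there were 2 members, Cpne4 and Plagl1, or 5.56% of the 36 against 7.14% of all genes tested. This count depended on the fit: it was 4 (11.1%) with DESeq2 and with limma-voom, where all genes gave 5.89% and 7.48%. With the choroid plexus marker level as a covariate it was 6 (16.7%), against 7.0% of all genes. With 1 library left out it ran from 2 to 6, while the share of all genes ran from 5.87% to 8.28%. The count of 6 came without control 2, at 16.7% against 6.65% of all genes. For 0 of the 36 did the 6 fear case libraries lie wholly above or wholly below the 6 controls, which was so for 0.597% of all genes tested. A list of 7 rapid activity genes was chosen with earlier results of these data known, so its calls are no independent check. In the same libraries all 7 had a positive log2 fold change, and 6 were among the 7 called higher over all genes tested. Among the 6 were the transcription factor genes Npas4, from 5.12 ± 1.34 to 21.4 ± 4.62 CPM (mean ± SD, n = 6 per group), and Fos, from 4.38 ± 1.60 to 20.9 ± 7.21 CPM. Egr1, which was not called, went from 126 ± 21.6 to 189 ± 51.6 CPM (log2 fold change 0.58, adjusted p = 0.108, edgeR). Since whole tissue was sampled, fewer cells of a type and less RNA per cell cannot be told apart in any value given here.

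The intervals show how large a difference these data would leave room for. The 95% interval of the fold change lay wholly within 1.5-fold in either direction (0.585 on the log2 scale) for 32 of the 36 genes: 13 of 14 in the dentate gyrus list, 10 of 11 in the CA1 and CA2 list and 9 of 11 in the CA3 list. The exceptions were Dsp, Dcn, Coch and Fmo1. The interval of Prox1 ran from -0.025 to 0.28 and that of Wfs1 from -0.40 to 0.12 on the log2 scale, while that of Npas4 ran from 1.72 to 2.40.

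**Figure D1:**
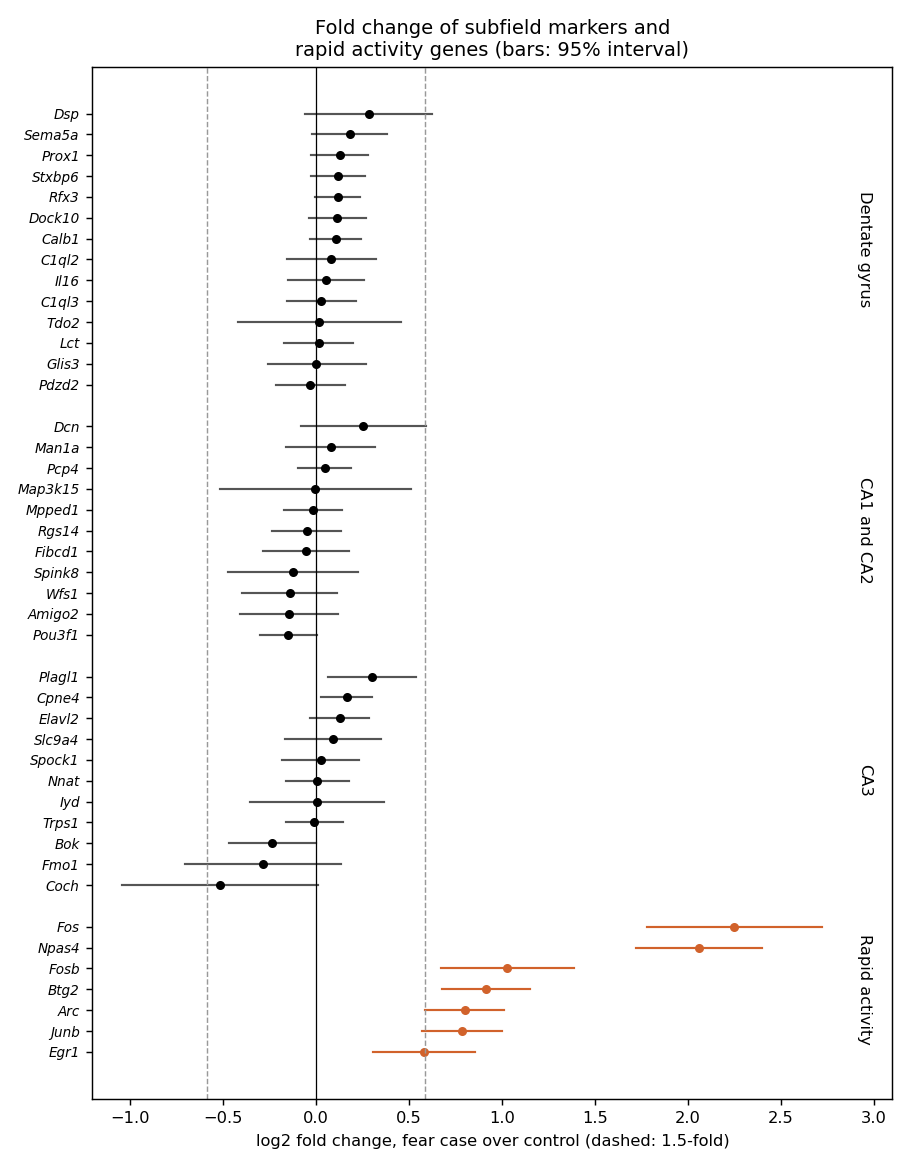
Log2 fold change of fear case over control for the 36 subfield markers, in 3 blocks, and for 7 rapid activity genes, each with its 95% interval from edgeR's quasi-likelihood fit; dashed lines mark 1.5-fold. The subfield markers lie between -0.51 (Coch) and 0.30 (Plagl1), and Fos and Npas4 lie above 2.

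Dentate gyrus markers had a median log2 fold change of 0.096, with 13 of 14 positive and 1 negative (Pdzd2), beside a median of -0.0046 and 48.6% positive over all genes tested. None of the 14 passed the test, and 0 had an unadjusted p under 0.05 with edgeR and all libraries. Rfx3 was under 0.05 with DESeq2, Dsp with a block for replicate number, and Dsp, Sema5a and Calb1 with the choroid plexus covariate. With 1 control left out, C1ql2 (control 1), Prox1 and Stxbp6 (control 2), and Dsp and Rfx3 (control 6) were under 0.05. With 1 fear case library left out, Sema5a (fear case 1), Dsp and Calb1 (fear case 4), Dsp (fear case 5) and Stxbp6 (fear case 6) were. Leaving out control 5, fear case 1 or fear case 5 each gave 11 of 14 positive, and leaving out fear case 6 gave 12. Its genes mark the same cells and were measured in the same libraries, so the 14 signs are not independent observations.

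Prox1 encodes the homeodomain factor that fixes and maintains granule cell identity. Its lowest, median and highest levels were 99.2, 117 and 128 CPM across controls and 118, 123 and 140 CPM in fear case. Fear case 1 alone lay above all controls, and the other 5 fear case libraries fell within the control range (log2 fold change 0.13, SE 0.074, adjusted p = 0.747, edgeR). Rfx3, which encodes a transcription factor of ciliated and neural cells, had the lowest unadjusted p of the list. It ranged over 183, 189 and 205 CPM across controls and 198, 204 and 217 CPM in fear case (lowest, median, highest), with 3 fear case libraries above all controls (log2 fold change 0.12, SE 0.059, adjusted p = 0.709).

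Calb1 encodes calbindin, a calcium buffer that is dense in granule cells. It stood at 157, 170 and 179 CPM across controls and 159, 182 and 201 CPM in fear case, where 4 libraries lay above all controls and the lowest lay inside the control range. Its log2 fold change was 0.11 (SE 0.067, adjusted p = 0.765). Stxbp6, which encodes the SNARE-binding protein amisyn, and Dock10 had log2 fold changes of 0.12 and 0.12, with adjusted p of 0.756 and 0.770 in edgeR.

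C1ql2 and C1ql3 encode secreted C1q-like proteins that organise the mossy fibre synapse onto CA3. C1ql2 stood at 20.4, 23.5 and 35.1 CPM across controls and at 23.1, 27.3 and 29.4 CPM in fear case, and its control maximum came from control 1 alone. Without control 1 its log2 fold change was 0.21 in place of 0.085 (adjusted p = 0.911 with all libraries). C1ql3 stood at 95.7, 102 and 129 CPM across controls and 89.0, 107 and 130 CPM in fear case, with the fear case range enclosing that of the controls. Its log2 fold change was 0.031 (adjusted p = 0.969), and -0.030 without fear case 6.

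Dsp encodes desmoplakin, which anchors intermediate filaments at desmosomes, and had the widest spread of the abundant dentate markers. Its levels were 30.4, 37.6 and 51.0 CPM across controls and 33.3, 39.5 and 70.7 CPM in fear case. The 2 libraries above all controls were fear case 1 and fear case 6, at 60.5 and 70.7 CPM, and the other 4 lay between 33.3 and 43.0 CPM. Without fear case 6 its log2 fold change was 0.12 in place of 0.28 (adjusted p = 0.747 with all libraries). With the choroid plexus marker level as a covariate it was 0.69 (adjusted p = 0.427). Of the fear case libraries only fear case 6 had a marker level in the control range, so every value from this fit leans on that library. Among fear case libraries Ttr was highest in fear case 6 and then fear case 1. Among controls Dsp was highest in control 6, where Ttr was lowest at 641 CPM. The part of choroid plexus in the Dsp values was not tested.

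Sema5a, a transmembrane semaphorin of axon guidance that limits granule cell synapses, stood at 70.6, 77.3 and 84.5 CPM across controls and 67.0, 81.9 and 113 CPM in fear case. Fear case 3 and fear case 6 lay above all controls, and fear case 1 lay below all of them (log2 fold change 0.18, SE 0.098, adjusted p = 0.735). Without fear case 6 the log2 fold change was 0.094. Glis3, a zinc-finger transcription factor gene, had nearly equal group means, 0.0041 apart on the log2 scale (adjusted p = 0.996). Control 5 was low for it, at 19.5 CPM against 36.8 to 41.4 CPM in the other controls. Trpc6, a cation channel gene of the companion list of granule cell genes, was likewise lowest in control 5, at 21.3 CPM against 35.0 to 50.1 CPM in the other controls.

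The remaining dentate markers had log2 fold changes under 0.06 in size. They were Lct, the lactase gene, at a log2 fold change of 0.016, Tdo2, the tryptophan dioxygenase gene, at 0.019, Il16, whose neuronal product is a PDZ scaffold, at 0.056, and Pdzd2, a multi-PDZ protein gene, at -0.028. Their adjusted p lay between 0.934 and 0.992. A companion list of 9 further granule cell genes, among them Neurod1 and Bcl11b, had 6 positive and 3 negative members with a median of 0.070. None of them passed, and 0 had an unadjusted p under 0.05. The lowest unadjusted p in it belonged to Fam163b, with a log2 fold change of -0.13 (adjusted p = 0.762), and Dgkh, a diacylglycerol kinase gene, with 0.13 (adjusted p = 0.784). Of 7 mossy cell genes 3 were positive and 4 negative, none passed, and Calb2, which encodes calretinin, lay at 0.14 on the log2 scale (adjusted p = 0.793).

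CA1 and CA2 markers had a median log2 fold change of -0.049, with 3 of 11 positive and 8 negative, and none passed the test or had an unadjusted p under 0.05 with edgeR and all libraries. Pou3f1 was under 0.05 with limma-voom, with a block for replicate number in edgeR, and without control 1 or fear case 3. Dcn was also under 0.05 without control 1. Without control 1 the median was -0.010, and 5 of 11 were positive. Without fear case 6 it was -0.037, with 4 positive.

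Wfs1 encodes wolframin, a membrane protein of the endoplasmic reticulum that is dense in dorsal CA1 pyramidal neurons. It stood at 61.0, 69.5 and 97.8 CPM across controls and 48.0, 70.0 and 82.0 CPM in fear case. The highest level came from control 5 and the lowest from fear case 5, and the groups overlapped over most of their range (log2 fold change -0.14, SE 0.12, adjusted p = 0.840). Without control 5 the log2 fold change was -0.048.

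Pou3f1, a POU-domain transcription factor gene of CA1, had the lowest unadjusted p of the list. Its levels were 73.7, 79.5 and 89.3 CPM across controls and 61.9, 72.9 and 83.1 CPM in fear case, with 3 fear case libraries below all controls. Its log2 fold change was -0.15 (SE 0.074, adjusted p = 0.716). Fibcd1, which encodes a membrane receptor for acetylated sugars and glycosaminoglycans, stood at 46.1, 54.7 and 80.0 CPM across controls and 47.1, 54.1 and 62.9 CPM in fear case. Control 1 was its highest library, and without it the log2 fold change turned from -0.052 to 0.072 (adjusted p = 0.951 with all libraries).

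Mpped1, a metallophosphoesterase gene, Man1a, a Golgi mannosidase gene, and Spink8, a Kazal-type protease inhibitor gene, had log2 fold changes of -0.014, 0.082 and -0.12. Their adjusted p were 0.985, 0.915 and 0.915 in edgeR. Dcn encodes decorin, a secreted proteoglycan, and stood at 13.0, 21.4 and 34.4 CPM across controls and 21.0, 26.9 and 33.3 CPM in fear case. Control 2 was the lowest and control 1 the highest of the 12 libraries, so that the control range enclosed the fear case range (log2 fold change 0.26, SE 0.16, adjusted p = 0.769). Without control 1 the log2 fold change was 0.43, and without control 2 it was 0.14. Summed over 8 meningeal fibroblast markers, including Col1a1 and Lum, the level was 35.9 to 61.4 CPM across controls and 22.7 to 61.5 CPM in fear case. None of those 8 markers was at 0 in any library, their median log2 fold change was -0.30 with none passing, and the part of meninges in the Dcn values was not tested.

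Of the 4 genes that mark CA2 in this list, 1 was positive and 3 were negative. Rgs14, a regulator of G-protein signalling that restrains synaptic plasticity in CA2, stood at 69.9, 71.1 and 84.1 CPM across controls and 54.7, 73.0 and 86.0 CPM in fear case. The lowest library was fear case 6, and without it the log2 fold change turned from -0.049 to 0.021 (adjusted p = 0.937 with all libraries). Amigo2, an adhesion protein gene, stood at 23.4, 25.4 and 34.5 CPM across controls and 18.9, 21.6 and 31.7 CPM in fear case. Although 4 fear case libraries lay below all controls, fear case 2 and fear case 6 lay within the control range (log2 fold change -0.14, SE 0.13, adjusted p = 0.841). Without control 1 the log2 fold change was -0.050, and without fear case 2 it was -0.24.

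Pcp4 encodes a small calmodulin-binding peptide and had the highest level per length of the 3 lists. It stood at 133, 149 and 168 CPM across controls and 143, 153 and 169 CPM in fear case, with 1 fear case library above all controls (log2 fold change 0.048, SE 0.069, adjusted p = 0.917). Map3k15, a MAP kinase kinase kinase gene, was the rarest marker at 2.84 ± 0.66 and 2.83 ± 0.84 CPM (n = 6 each), with a log2 fold change of -0.0019 (adjusted p = 0.999). In the companion list of 8 further CA1 and CA2 genes 3 were positive and 5 negative, and none passed. Nr3c2, the mineralocorticoid receptor gene, which is dense in CA2, was the member with an unadjusted p under 0.05, with means of 172 and 195 CPM in control and fear case (log2 fold change 0.18, adjusted p = 0.559). Itpka, an inositol phosphate kinase gene, came next at -0.13 (adjusted p = 0.762).

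CA3 markers had a median log2 fold change of 0.0087, with 7 of 11 positive and 4 negative, and spread more widely than the other lists, from -0.51 to 0.30. None passed the test. The 2 members with an unadjusted p under 0.05 in edgeR with all libraries, Cpne4 and Plagl1, were both in this list. With the choroid plexus covariate Plagl1 stayed under 0.05, Cpne4 did not, and Bok and Elavl2 were under 0.05 as well. Bok was also under 0.05 with limma-voom, with the replicate block, without a filter on low counts, and without fear case 2 or fear case 3. Coch was under 0.05 with DESeq2, without that filter, and without control 2, fear case 3 or fear case 6. So were Fmo1 without control 2, and Elavl2 without control 3 or fear case 2. Cpne4 was not under 0.05 without fear case 3, nor Plagl1 without fear case 1 or fear case 6.

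Cpne4 encodes a copine, a calcium-dependent phospholipid-binding protein. It stood at 86.6, 92.0 and 101 CPM across controls and 92.9, 105 and 112 CPM in fear case. Fear case 1, 3, 4 and 5 lay above all controls, at 102 to 112 CPM, and fear case 2 and fear case 6 fell inside the control range. Its log2 fold change was 0.17 (SE 0.066, adjusted p = 0.590), and 0.20 without fear case 6, where the adjusted p was 0.240, the lowest of any member under any alternative.

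Plagl1 encodes an imprinted zinc-finger transcription factor. It stood at 20.2, 25.3 and 27.8 CPM across controls and 25.1, 29.0 and 38.3 CPM in fear case, with 4 fear case libraries above all controls. Fear case 1 and fear case 6 were the highest, at 37.6 and 38.3 CPM, the same pair of libraries that was highest for Dsp. The log2 fold change was 0.30 (SE 0.11, adjusted p = 0.559), 0.23 without fear case 6, and 0.57 with the choroid plexus marker level as a covariate. Its adjusted p lay between 0.347 and 0.757 over the alternatives.

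Bok, a BCL2-family gene, stood at 34.2, 34.6 and 41.5 CPM across controls and 21.1, 32.0 and 37.7 CPM in fear case. Although 4 fear case libraries lay below all controls, fear case 2 and fear case 3 lay within the control range (log2 fold change -0.23, SE 0.11, adjusted p = 0.704). Fear case 6 was the lowest, and without it the log2 fold change was -0.14. With the choroid plexus covariate it was -0.49.

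Coch encodes cochlin, a secreted matrix protein, and had the largest difference of the 36 genes and also the largest spread. It stood at 2.76, 4.45 and 8.68 CPM across controls and 2.17, 3.06 and 5.14 CPM in fear case, and the highest library was control 5, ahead of fear case 6. The log2 fold change was -0.51 (SE 0.25, adjusted p = 0.709), and -0.27 without control 5. Of 7 thalamic markers, 4 were also highest in control 5 among controls (Zic1, Tcf7l2, Prkcd and Ramp3) and 3 were not (Lef1, Slc17a6 and Rora). Zic1 stood at 37.5 CPM there against 13.9 to 19.0 CPM in the other controls. The median log2 fold change of the 7 was -0.21, none passed, and the part of neighbouring tissue in the Coch values was not tested.

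Nnat encodes neuronatin, a small membrane proteolipid from an imprinted locus, and was the most abundant CA3 marker. It stood at 227, 246 and 285 CPM across controls and 199, 254 and 295 CPM in fear case, and the fear case range enclosed the control range (log2 fold change 0.0087, adjusted p = 0.992). Elavl2, a neuronal RNA-binding protein gene, was at a log2 fold change of 0.13 (adjusted p = 0.755), Slc9a4, a sodium-proton exchanger gene, 0.094 (0.910), and Spock1, which encodes the proteoglycan testican, 0.028 (0.977). Iyd, the iodotyrosine deiodinase gene, and Trps1, a GATA-type repressor gene, lay at 0.0059 (0.996) and -0.0065 (0.993). Fmo1, a flavin monooxygenase gene, was at 6.23 ± 1.91 CPM across controls and 5.12 ± 0.871 CPM in fear case (n = 6 each; log2 fold change -0.28, adjusted p = 0.795). Of 7 further CA3 genes in the companion list 4 were positive and 3 negative, and none passed. St18, a zinc-finger gene, and Grik4, a kainate receptor subunit gene, had the lowest unadjusted p. Their log2 fold changes were 0.11 and 0.13, and their adjusted p were 0.764 and 0.820.

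The levels of the genes themselves differed far more than their group means. Expressed as CPM per kb of merged exons, so that genes of unlike length can be set side by side, the dentate markers ran from C1ql3 at 42.4 ± 5.21 (mean ± SD over 12 libraries) to Tdo2 at 1.35 ± 0.354, a ratio of 31.4. The order was C1ql3, Calb1, Stxbp6, Rfx3, Prox1, C1ql2, Lct, Il16, Dock10, Sema5a, Dsp, Glis3, Pdzd2 and Tdo2. Of 13 neighbouring pairs in this order, the ranges over libraries overlapped in 9, and they parted after Calb1, Stxbp6, C1ql2 and Pdzd2.

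In the CA1 and CA2 list Pcp4 led at 147 ± 11.1 CPM per kb, 4.22 times the mean of Mpped1 at 34.9 ± 2.99 and 226 times that of Map3k15 at 0.652 ± 0.166. Pou3f1, Wfs1 and Rgs14 followed at 19.8 ± 1.89, 18.8 ± 3.57 and 17.4 ± 1.97, and neighbours among them could not be parted by their ranges. Below them came Fibcd1, Spink8, Amigo2, Dcn and Man1a. The ranges overlapped in 6 of the 10 neighbouring pairs.

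In the CA3 list Nnat led at 137 ± 14.2 CPM per kb, 6.42 times the mean of Spock1 at 21.4 ± 3.15 and 153 times that of Fmo1 at 0.900 ± 0.243. Spock1, Bok and Cpne4 formed a group at 21.4, 18.4 and 17.9 CPM per kb whose neighbouring ranges overlapped, and Elavl2, Trps1, Iyd, Plagl1, Slc9a4 and Coch followed. The ranges overlapped in 6 of 10 pairs. Exon length was taken from the union of annotated transcripts, so a gene whose hippocampal transcript is short is understated on this scale. Exons of Il16, Man1a, Amigo2, Map3k15, Pcp4 and Trps1 overlap exons of another counted gene, and the sources used here do not say whether counting used strand.

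**Figure D2:**
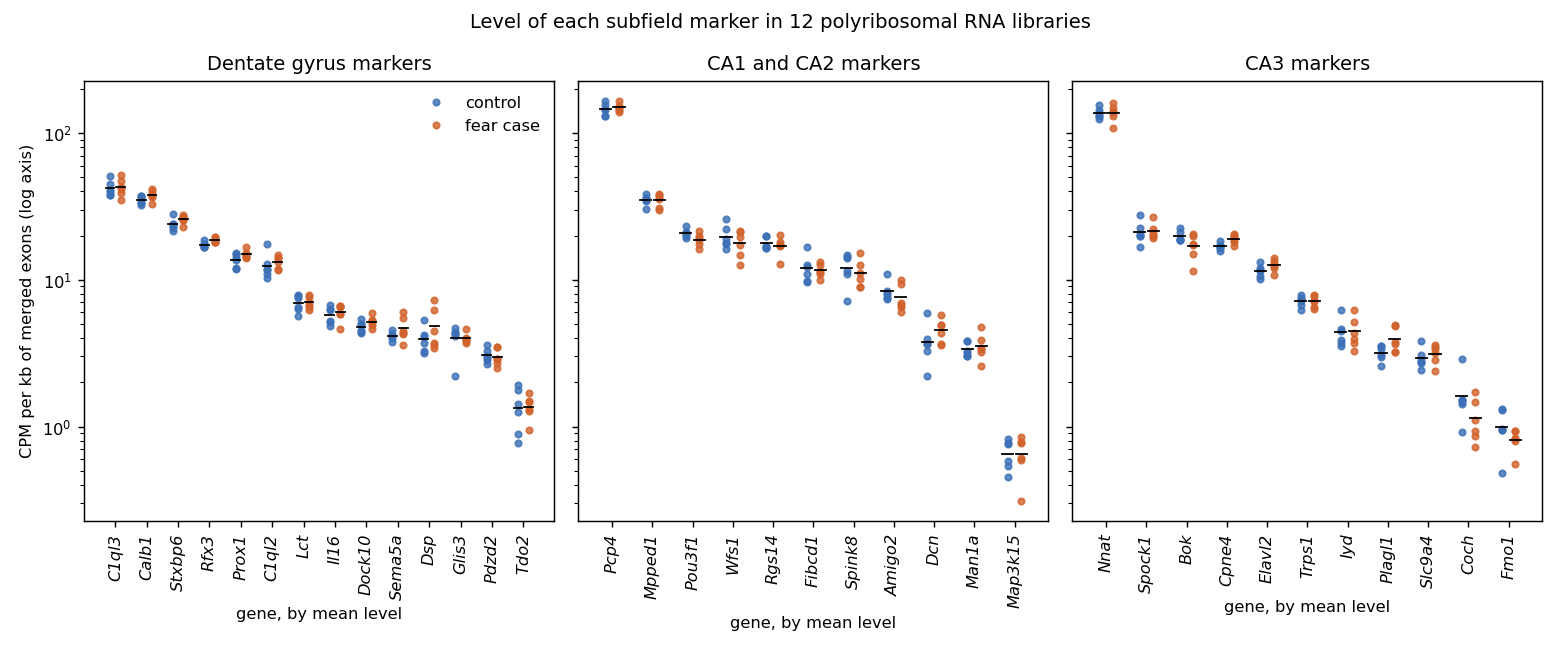
CPM per kb of merged exons on a log axis for each marker, with 1 point per library (6 control, 6 fear case) and a bar at the group mean; genes are ordered by mean level within each list. Control and fear case points overlap for every gene, while levels span from 0.652 (Map3k15) to 147 (Pcp4) CPM per kb.

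The spread between control libraries was larger than counting error for every marker. The coefficient of variation over the 6 controls was under 10% for 14 genes and at least 20% for 10 genes (C1ql2, Tdo2, Glis3, Fibcd1, Dcn, Map3k15, Spink8, Iyd, Coch and Fmo1). Rfx3 was the steadiest at 4.43% in controls, where counting error alone gives 1.61%. Coch was the least steady at 40.8%, where counting error gives 10.5%. The smallest ratio of the control variation to the counting error was 1.73, for Map3k15.

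The position of each library was described by the mean, over the members of a list, of log2 CPM minus that gene's mean over the 12 libraries. For dentate markers it ran from -0.12 (control 5) to -0.00058 (control 2) in controls and from -0.033 (fear case 4) to 0.12 (fear case 6) in fear case. Fear case 1 and fear case 6 were the highest, at 0.11 and 0.12. In fear case 1, 11 of 14 dentate markers lay above their own median, while in control 3 and in control 5 this was so for 4 of 14.

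For CA1 and CA2 markers the order of libraries was different. Control 1 was the highest at 0.21 and fear case 5 the lowest at -0.15, with 7 and 2 of 11 markers above their own median. For CA3 markers control 5 was the highest at 0.15 and control 2 the lowest at -0.19, with 8 and 3 of 11 above their own median. The dentate position minus that of CA1 and CA2 ran from -0.23 (control 1) to 0.13 (control 2) in controls and from -0.13 (fear case 2) to 0.19 (fear case 5) in fear case, so that it took both signs within each group.

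**Figure D3:**
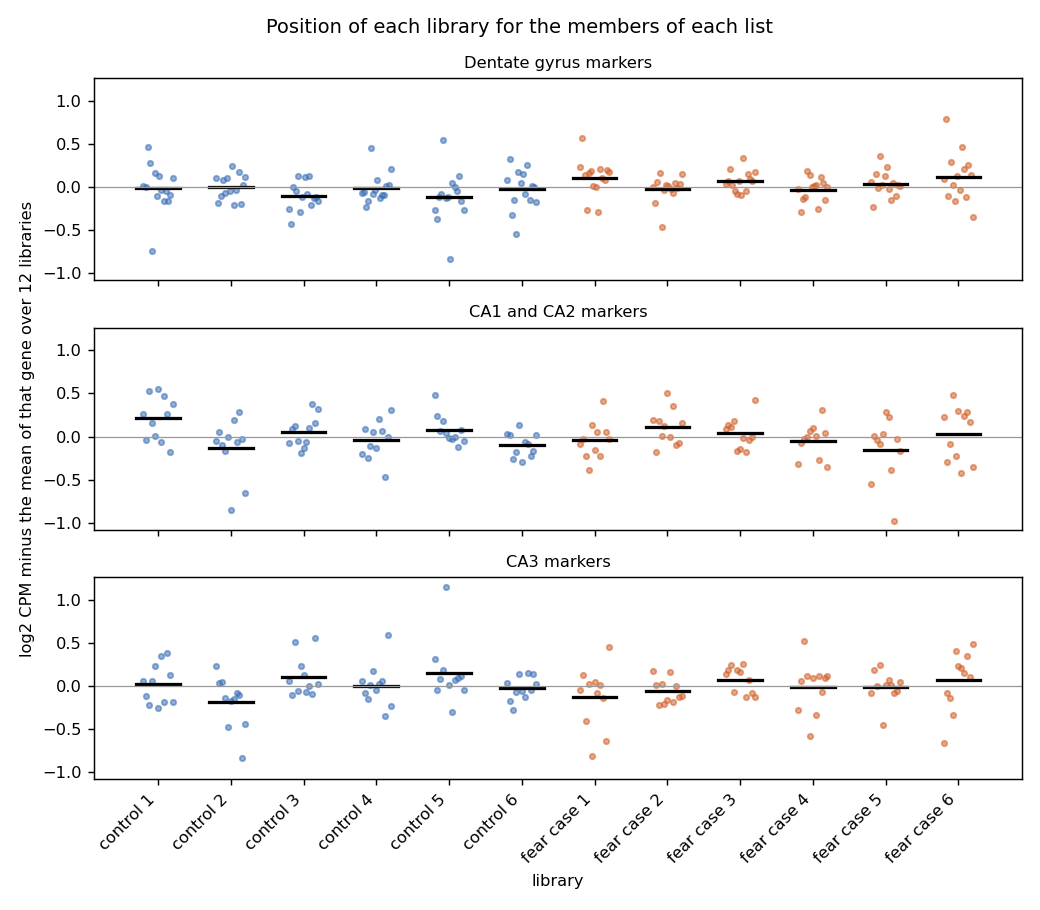
Deviation of log2 CPM from each gene's mean over 12 libraries, with 1 point per marker and a bar at the list mean, for each library in the 3 lists. The bars stay within 0.22 of 0 in every library, with control 1 highest for CA1 and CA2 markers (0.21) and control 2 lowest for CA3 markers (-0.19).

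In control 1 and fear case 1, the markers that lay high or low together did not belong to a single list. Grouped by the encoded protein, 16 members are secreted or inserted into membranes through the endoplasmic reticulum (C1ql2, C1ql3, Lct, Sema5a, Wfs1, Fibcd1, Man1a, Dcn, Amigo2, Spink8, Iyd, Nnat, Coch, Slc9a4, Spock1 and Fmo1), and 20 are cytosolic, cytoskeletal, nuclear or inserted after synthesis. This grouping was made from background knowledge after the values had been seen, so it is a description and carries no test. In control 1, 14 of the 16 secreted or membrane members lay above their own 12-library median, against 5 of the 20 others. In fear case 1 the reverse was seen, with 3 of 16 against 17 of 20.

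The mean position of the 16 was 0.26 in control 1, -0.23 in control 2 and -0.21 in fear case 1, and that of the 20 others was -0.088, 0.0099 and 0.15 in the same libraries. In control 1 the CA1 and CA2 members of this kind stood at 0.39, those of CA3 at 0.16 and those of the dentate gyrus at 0.22. The low positions came from CA1 and CA2 (-0.32 in control 2 and -0.19 in fear case 1) and from CA3 (-0.28 and -0.34), while the 4 dentate members stood at -0.034 and -0.057, with 2 of 4 above their median in each library. Among 49 other neuronal genes of the companion lists, 25 of the 28 that encode secreted or membrane proteins lay above their median in control 1, and 6 of 28 in fear case 1. For the 21 others the counts were 4 and 18. These genes were sorted by the same grouping and measured in the same libraries, so they are not an independent check. The position of secreted or membrane genes minus others was 0.35 in members and 0.52 in companions in control 1. In control 5 it was 0.15 and -0.080. Slc17a7, the vesicular glutamate transporter gene, stood at 755 CPM in control 1 and 465 CPM in fear case 1, against 533 to 621 CPM in the remaining 10 libraries.

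For fear case over control the median log2 fold change was 0.012 in the 16 (10 positive) and 0.052 in the 20 (13 positive). The 16 had a larger coefficient of variation over the 12 libraries, with a median of 16.4% against 9.78%. They also had a lower level, with a median of 29.5 against 83.5 CPM, and a shorter exon length, with a median of 4.17 against 6.66 kb. The part of level and length in the larger variation was not tested.

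**Figure D4:**
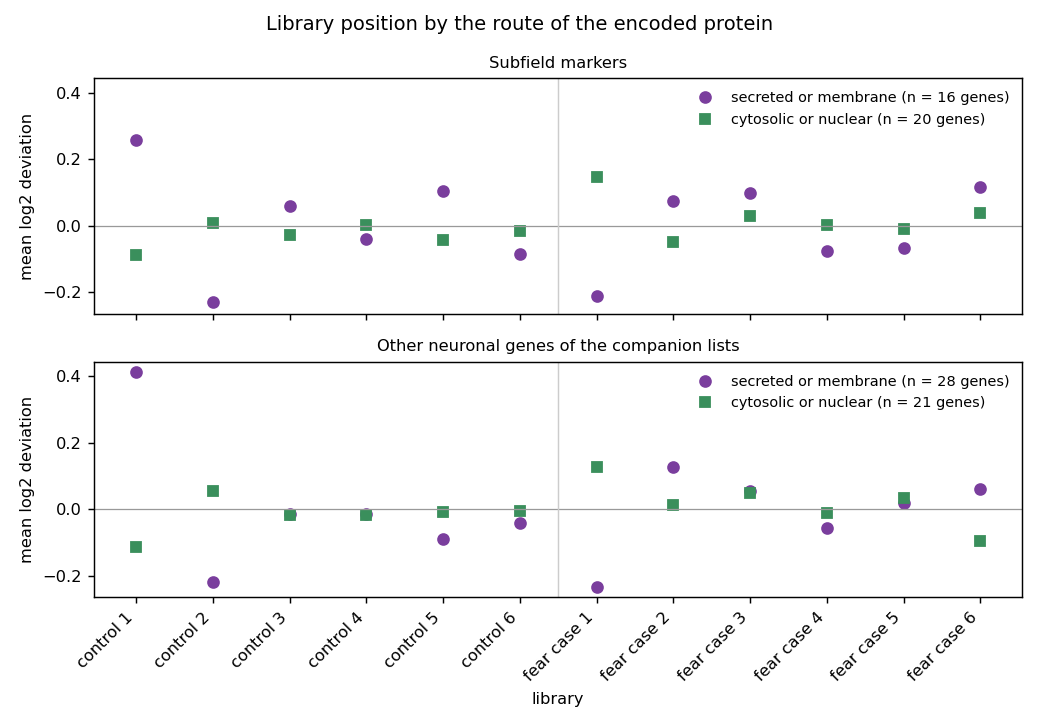
Mean deviation of log2 CPM from each gene's 12-library mean, by library, for secreted or membrane proteins (circles) and other proteins (squares), in the subfield markers (upper panel, 16 and 20 genes) and in other neuronal genes (lower panel, 28 and 21 genes). The circles stand highest in control 1 (0.26 above, 0.41 below) and low in control 2 and fear case 1 in both panels. For the 23 secreted or membrane companions averaging over 5 CPM (not drawn), control 1 stood at 0.26, control 2 at -0.12 and fear case 1 at -0.23.

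Promoter sequence was examined because genes of the AP-1 transcription factor, Fos, Fosb and Junb, rose in these libraries while 0 of the 36 subfield markers were called. Windows from RefSeq (GRCm38.p6, 250 bases before to 50 after a transcript start) were found for 27 of the 36 members, 38 windows in all. The cyclic-AMP response element TGACGTCA, searched on both strands, was in 0 of the 38 windows, where 1.79% of all 32851 windows hold it. The AP-1 letters TGANTCA, which read alike on both strands and do not overlap TGACGTCA, were in 3 of the 38 windows (7.89%), those of Rfx3, Il16 and Spock1, close to the 7.81% of all windows that hold them. In Rfx3 they lie after the transcript start. Of 5 rapid activity genes with a window, 1 (Btg2) held the cyclic-AMP response element and 0 held the AP-1 letters. The windows of Fos, Fosb, Junb and Npas4, which also rose, held neither in these exact letters. Shorter or variant forms of the response element were not searched, so the search cannot say whether these windows lack one. The 250 bases before the start are shown for Spock1 and for the Il16 start that holds the AP-1 letters. They are also shown for Btg2, an antiproliferative gene that rose and whose window holds the cyclic-AMP response element. Each is 5′ to 3′ on the strand of the gene, with the matched letters in capitals; all 3 genes lie on the minus strand.
Spock1, chr13:57908333-57908582: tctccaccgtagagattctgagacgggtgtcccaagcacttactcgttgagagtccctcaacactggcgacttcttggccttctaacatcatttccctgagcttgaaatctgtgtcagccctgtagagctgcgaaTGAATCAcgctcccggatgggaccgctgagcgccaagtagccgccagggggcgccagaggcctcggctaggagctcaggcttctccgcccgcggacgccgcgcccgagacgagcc
Il16, chr7:83735540-83735789: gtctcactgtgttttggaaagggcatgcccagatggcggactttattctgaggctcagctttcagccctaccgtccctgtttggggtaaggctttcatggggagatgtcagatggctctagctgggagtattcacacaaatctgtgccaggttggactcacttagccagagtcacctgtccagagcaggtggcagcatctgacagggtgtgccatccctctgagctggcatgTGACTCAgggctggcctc
Btg2, chr1:134079156-134079405: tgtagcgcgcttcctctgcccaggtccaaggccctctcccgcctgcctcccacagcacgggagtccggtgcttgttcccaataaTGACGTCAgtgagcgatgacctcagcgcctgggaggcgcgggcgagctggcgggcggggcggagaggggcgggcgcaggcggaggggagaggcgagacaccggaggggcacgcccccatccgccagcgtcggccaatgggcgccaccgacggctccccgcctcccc
Spock1, at 177 ± 31.3 CPM across controls and 181 ± 23.3 CPM in fear case, and Il16, at 45.3 ± 6.06 and 47.1 ± 6.02 CPM (n = 6 each), did not pass the test (adjusted p = 0.977 and 0.934, edgeR). Btg2 rose from 14.2 ± 0.623 to 26.6 ± 4.98 CPM, a log2 fold change of 0.91 (adjusted p = 0.000235, edgeR). A match is a description of letters and not of a bound site.

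Among the lists of other cell types, the median log2 fold change of 11 interneuron genes was 0.025, with Lhx6 at 0.15 (adjusted p = 0.746) and Cnr1 at 0.14 (adjusted p = 0.785). The 12 choroid plexus markers were all negative with a median of -1.59 and none passed by edgeR, although all 12 had an unadjusted p under 0.05. Their mean log2 CPM was 3.73 to 4.71 in controls, 4.31 in fear case 6 and -0.75 to 2.96 in fear case 1 to 5. With their mean log2 CPM as a covariate, 0 of the 36 subfield markers were called. The medians of the 3 lists were then 0.15 for the dentate gyrus, -0.11 for CA1 and CA2 and 0.065 for CA3. Only fear case 6 overlapped the controls in this covariate, so the fit leans on that library and parts group from covariate poorly. Without fear case 6, the fear case library with choroid plexus transcripts in the control range, 0 of the 36 were called as well.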

How the data were processed

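Polyribosomal RNA was measured in 12 hippocampal libraries, 6 control and 6 fear case by their labels. Per the labels' protocols, cleared homogenates were spun through a sucrose cushion, and libraries were made from the pellet with the SMARTer total RNA-seq kit. The deposited files hold raw counts per gene symbol; cutadapt, Bowtie, TopHat and HTSeq, without versions, and the build mm10 are named in the submitters' processing notes. The sources used here do not give the annotation or the strand setting. Of reads on 1 gene, several genes or none, 25.5% to 33.3% fell on none, and a further 67.8 M to 115 M per library, listed as not unique, entered no gene's count. All these summary rows stayed out of library sizes.

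Genes were kept by filterByExpr (minimum count 10, minimum total 15), scaled by TMM and tested in R 4.3.3 with edgeR 4.0.16 (quasi-likelihood test, all 14564 genes, no covariates, calls at an adjusted p under 0.05). The SE is the log2 fold change over the square root of F, intervals are at 95%, and log2 CPM used a prior count of 2. At the scaled depths 1 CPM is 18.8 to 40.1 counts. DESeq2 1.42.0, limma 3.58.1, RLE scaling, other filters, a replicate block, a choroid plexus covariate and leaving out each library were the alternatives. Exon lengths came from GENCODE vM21 (GRCm38), which holds all 36 members. No lists were tested.

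Members, companion lists and the naming rule were chosen with earlier results of these data known. The rule names every member, gives levels for 14 fixed genes, for the 3 with the lowest unadjusted p and for the most abundant per length of each list, and up to 2 genes of each companion list. In the companion lists not described above, the median log2 fold change was -0.14 in 7 oligodendrocyte genes, 0.056 in 6 astrocyte genes, 0.011 in 6 microglial genes, and -0.13 in 5 endothelial genes. None of the members of these lists, or of the thalamic, striatal and cortical, and meningeal lists, passed by edgeR (unadjusted p under 0.05 in Mobp, Lef1 and Igfbp2). Zic1, Trpc6, Slc17a7 and the grouping by protein route were chosen after their values were seen.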

Additional observations from a re-analysis of the deposited data

Results flagged for a closer look

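In 72 sets of 6 libraries (36 genes in each group), 6 single libraries stood apart from the other 5 by Dixon's criterion, which chance alone meets in about 1 of 20 sets. Control 1 was high for C1ql2, at 35.1 CPM against 20.4 to 25.5 CPM in the other controls, and for Amigo2, at 34.5 CPM against 23.4 to 26.6 CPM. Control 5 was low for Glis3, at 19.5 CPM against 36.8 to 41.4 CPM, and high for Coch, at 8.68 CPM against 2.76 to 4.57 CPM. Fear case 5 was high for Glis3, at 40.9 CPM against 32.6 to 35.2 CPM. Fear case 1 was low for Fmo1, at 3.49 CPM against 5.02 to 5.88 CPM.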

How the results depend on the processing

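No member was called under any of the 19 alternatives. Of 684 member values under alternatives 632 kept their direction and 52 reversed it, in 15 genes whose log2 fold change with all libraries was at most 0.082 in size. With the choroid plexus covariate the reversed values were -0.032 for Lct, 0.13 for Pdzd2, -0.095 for Il16, 0.11 for Map3k15, -0.20 for Iyd, -0.085 for Nnat and 0.065 for Trps1. With limma-voom they were -0.027 for Iyd and -0.0016 for Nnat. With 1 library left out, the log2 fold change ran from -0.030 to 0.096 for C1ql3, -0.094 to 0.15 for Tdo2, -0.035 to 0.055 for Lct, -0.12 to 0.055 for Glis3 and -0.078 to 0.022 for Pdzd2. It ran from -0.11 to 0.072 for Fibcd1, -0.026 to 0.15 for Man1a, -0.051 to 0.026 for Mpped1, -0.10 to 0.021 for Rgs14 and -0.091 to 0.14 for Map3k15. It ran from -0.12 to 0.13 for Iyd, -0.041 to 0.068 for Nnat, -0.040 to 0.029 for Trps1 and -0.047 to 0.12 for Spock1. Without a change of sign it ran from -0.23 to -0.055 for Spink8, 0.043 to 0.19 for Slc9a4, 0.016 to 0.087 for Pcp4, 0.011 to 0.12 for Il16, 0.072 to 0.15 for Dock10 and -0.42 to -0.19 for Fmo1. The list medians lay furthest from 0 with the choroid plexus covariate, at 0.15 (dentate gyrus), -0.11 (CA1 and CA2) and 0.065 (CA3). The CA3 median turned negative with limma-voom (-0.0016) and without fear case 4. With 1 library left out the list medians ran from 0.077 to 0.12 (dentate gyrus), -0.073 to -0.010 (CA1 and CA2) and -0.011 to 0.056 (CA3).

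Over all genes, 7 were called higher and 8 lower. These became 11 and 26 without a filter on low counts, 13 and 47 with DESeq2, and 7 and 5 with limma-voom. With at least 1 CPM in 6 libraries 4 were lower, and with the choroid plexus covariate 0 were lower. With 1 library left out the higher genes numbered 6 to 12 and the lower genes 3 to 116, the maxima both without fear case 6. The causes were not tested. The labels do not say whether replicate numbers pair the samples. Correlations of same-numbered deviations ran from -0.171 to 0.0468, and such values cannot decide it. With the replicate block 7 genes were higher and 11 lower, 0 members were called, 5 (13.9%, against 7.45% of all genes) had an unadjusted p under 0.05, namely Dsp, Pou3f1, Bok, Cpne4 and Plagl1, and the list medians were 0.10, -0.032 and 0.0029.

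Depth limits the rarest markers: Map3k15, Coch and Fmo1 had as few as 30, 51 and 57 counts in a library.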
